A study of Mus musculus with 6 samples.

Results

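The 10 genes described here encode regulators that set how strongly SMAD proteins respond to ligands of the TGF-beta and BMP families. They were taken by name as Ski, Skil, Tgif1, Zeb2, Smurf1, Smurf2, Pmepa1, Fkbp1a, Rgma and Rgmb, and all 10 were found among the 21115 gene-level probe sets of the array. An Affymetrix array was run on primary C57BL/6 hepatocytes, 3 samples after 24 hours with recombinant BMP2 (50 ng/ml) and 3 controls without BMP2, with cells from 3 mice. All cultures were attached in serum with dexamethasone and then kept serum-free, with dexamethasone withdrawn at the last change of medium. The age and sex of the mice, and whether controls received the dilute hydrochloric acid in which BMP2 was dissolved, are not given in the labels.

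BMP2 brings receptor kinases together, which phosphorylate SMAD1, SMAD5 and SMAD9. These join SMAD4, enter the nucleus and switch on genes such as that of hepcidin, the liver hormone that limits iron entry into blood. The pathway is held in check at several levels. FKBP12, the product of Fkbp1a, sits on receptor kinases and keeps them inactive without ligand, while SMURF1 and SMURF2 are ubiquitin ligases that mark SMADs and receptors for degradation. PMEPA1 is a membrane protein that holds back receptor-activated SMADs. In the nucleus SKI, SnoN (the product of Skil), TGIF1 and ZEB2 bind SMADs and recruit repressor complexes. RGMa and RGMb act the other way, as membrane-anchored BMP co-receptors related to hemojuvelin.

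The promoter windows are shown for a gene whose 3 BMP2 samples lay above the 3 controls (Ski), for one that also passed the test that takes the replicate number into account (Zeb2), and for one whose groups overlapped (Smurf2). Each is the run of 250 bases that ends just before a transcription start in RefSeq, build GRCm38.p6, and all lie on the minus strand. Capitals mark GGCGCC, the GC-rich sequence known as a BMP-SMAD element, and GTCT or its reverse complement AGAC, the core SMAD box. Both strands were searched, and the motifs do not overlap each other.
Ski, chr4:155222536-155222785: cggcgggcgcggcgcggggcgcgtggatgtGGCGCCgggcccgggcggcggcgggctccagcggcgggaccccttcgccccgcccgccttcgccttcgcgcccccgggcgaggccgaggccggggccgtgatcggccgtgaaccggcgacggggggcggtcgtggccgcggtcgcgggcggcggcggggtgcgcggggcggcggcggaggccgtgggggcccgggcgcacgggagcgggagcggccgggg
Zeb2, chr2:45117443-45117692: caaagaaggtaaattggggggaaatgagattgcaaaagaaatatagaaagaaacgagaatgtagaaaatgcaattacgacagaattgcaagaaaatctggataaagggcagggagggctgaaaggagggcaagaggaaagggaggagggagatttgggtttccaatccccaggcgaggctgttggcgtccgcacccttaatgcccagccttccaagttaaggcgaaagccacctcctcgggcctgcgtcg
Smurf2, chr11:106920716-106920965: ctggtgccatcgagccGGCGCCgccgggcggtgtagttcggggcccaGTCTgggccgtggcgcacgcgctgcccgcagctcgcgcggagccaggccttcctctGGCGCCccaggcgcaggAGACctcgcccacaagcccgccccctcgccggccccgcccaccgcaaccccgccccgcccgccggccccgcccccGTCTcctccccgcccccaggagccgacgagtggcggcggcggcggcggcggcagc
The Ski window held GGCGCC 1 time, 220 bases before the start, and no GTCT. The Zeb2 window, the outermost of 4 for that gene, held neither, and the other Zeb2 windows held GTCT or AGAC and no GGCGCC. The Smurf2 window held GGCGCC 2 times, 234 and 147 bases before the start, and GTCT or AGAC 3 times. Their content of G and C was 87.6% for Ski, 49.6% for Zeb2 and 82.0% for Smurf2. A window was found for 7 of the 10 genes, 16 windows in all, and none for Skil, Pmepa1 and Rgma. GGCGCC stood in 3 of the 16 windows, 1 each of Ski, Smurf2 and Rgmb, and in 9.59% of all 32851 windows of this length. GTCT or AGAC stood in 13 of the 16, from 6 genes, and in 82.9% of all windows. These matches describe the letters of the windows and are not measured binding sites.

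Values are log2 expression values as the authors deposited them, where a difference of 1 is a 2-fold change. The lowest value on the array was 6.35, and 57.9% of probe sets averaged under 7, a range taken here as near the floor, where a change is compressed. Sample medians ran from 6.80 to 6.81. Of 9 measured hepatocyte markers 8 averaged 7 or more, with the albumin gene Alb at 13.71 to 13.83 in BMP2 samples and 13.79 to 13.84 in controls, while Cyp2e1, a cytochrome of pericentral hepatocytes, was near the floor in both groups. All BMP2 samples lay above all controls for 5 of the 9, against 8.42% of all probe sets, and none lay wholly below. In limma 1 of the 9 rose, against 1.19% of all probe sets: Hnf4a, a transcription factor of hepatocytes, by 0.82 (limma adjusted p = 0.0097, and 0.022 with the replicate number as a block). Ttr, which encodes the plasma carrier transthyretin, rose with that block (0.68; limma adjusted p = 0.017, and 0.073 without it). Of 36 measured markers of endothelial, stellate, Kupffer and bile duct cells, 31 averaged under 7 in both groups.

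Of the 10 regulators, Skil and Zeb2 had the largest differences between BMP2 and control samples, 0.47 and 0.38 on the log2 scale (1.38-fold and 1.30-fold), and Ski differed by 0.15. The ubiquitin ligase gene Smurf1 was at -0.16 and Fkbp1a at -0.089. The other genes lay between -0.018 (Smurf2) and 0.10 (Pmepa1). In limma over all genes 0 of the 10 passed an adjusted p of 0.05, against 1.19% of all probe sets, and 2 of 10 had an unadjusted p under 0.05, against 12.5% of all. With the replicate number as a block, which compares BMP2 and control within each number, Skil and Zeb2 rose, 2 of 10 against 3.32% of all probe sets (1.68% for those that rose), and 5 of 10 had an unadjusted p under 0.05, against 18% of all. The median difference of the 10 was 0.013, and that of all probe sets was 0.00065.

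**Figure D1:**
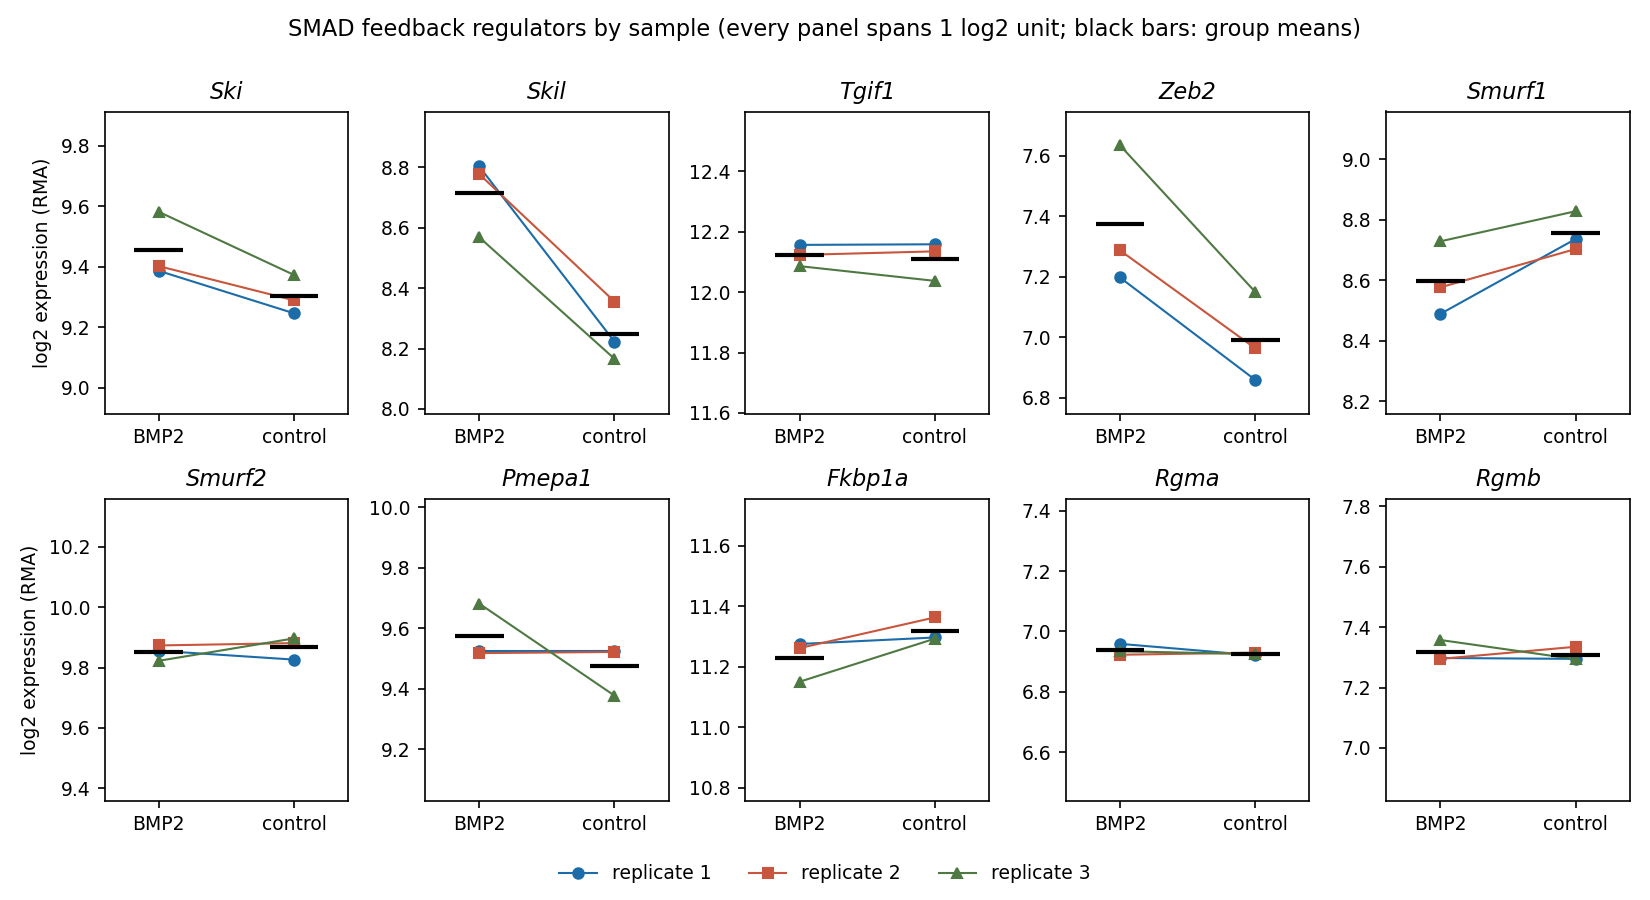
Log2 expression of each regulator in 6 samples, with BMP2 on the left and control on the right of each panel. Lines join samples of the same replicate number, black bars are group means (n = 3), and every panel spans 1 log2 unit. The lines of Skil, Zeb2 and Ski run the same way in all 3 replicates, those of Smurf1 and Fkbp1a run the opposite way, and those of Tgif1, Rgma and Rgmb are nearly flat.

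Among the nuclear corepressors, Skil showed the largest difference of the 10. Skil encodes SnoN, which represses SMAD targets and is itself induced by TGF-beta in many cells. Its log2 level was 8.80, 8.78 and 8.57 in BMP2 replicates 1 to 3, against 8.22, 8.36 and 8.17 in controls. The lowest BMP2 sample lay above the highest control, and replicate 3 was the lowest of its group in both. Means were 8.72 ± 0.13 with BMP2 and 8.25 ± 0.10 in controls (SD, n = 3 each). The difference was 0.47 ± 0.08 (SE; 95% interval 0.26 to 0.68) with a limma adjusted p of 0.087. With the replicate block the SE was 0.04 and the limma adjusted p was 0.042, and BMP2 was higher by 0.58, 0.42 and 0.40 within replicates 1 to 3. With the replicate number as a random block the limma adjusted p of Skil was 0.031. Of all probe sets, 1.05% differed by more than Skil in either direction. Without the block Skil passed in 0 of the 6 limma fits with 1 sample left out, where the difference ran from 0.42 to 0.54 and the adjusted p from 0.056 (without BMP2 replicate 3) to 0.27 (without BMP2 replicate 2).

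Ski, the founding member of the same corepressor family, had a smaller difference. Its log2 level was 9.39, 9.40 and 9.58 in BMP2 samples, against 9.25, 9.29 and 9.37 in controls. The groups did not overlap, but the lowest BMP2 sample stood only just above the highest control. Here replicate 3 was the highest of its group, the reverse of Skil. The difference was 0.15 ± 0.06 (SE) with a limma adjusted p of 0.43, and of 0.079 with the replicate block, with 0.14, 0.11 and 0.21 in the pairs. It was 0.092 without BMP2 replicate 3. The BMP2 minus control difference of Skil exceeded that of Ski by 0.44, 0.31 and 0.19 in replicates 1 to 3, 0.31 on average. An exact two-sided permutation test over the 6 samples gave p = 0.20 (0.30 adjusted over 3 paralogue pairs), where 3 samples against 3 allow no p below 0.10. A paired exact sign-flip test of the 3 within-replicate values gave p = 0.25, the smallest that 3 pairs allow. Neither test could pass 0.05 in this design, so whether the 2 paralogues differ in response is not settled here.

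Zeb2 encodes a zinc finger repressor that binds activated SMADs and is best known from neural crest and mesenchymal cells. Its log2 level was 7.20, 7.29 and 7.63 in BMP2 samples, against 6.86, 6.96 and 7.15 in controls. The lowest BMP2 sample exceeded the highest control by a small margin, and replicate 3 was again the highest of each group. Means were 7.37 ± 0.23 with BMP2 and 6.99 ± 0.15 in controls (SD, n = 3 each), so that the control level lay near the floor and the difference may be compressed. The difference was 0.38 ± 0.14 (SE; 95% interval 0.03 to 0.74), with a limma adjusted p of 0.36. With the replicate block the SE was 0.04 and the limma adjusted p was 0.048, and the pairs differed by 0.34, 0.32 and 0.49. With the replicate number as a random block the limma adjusted p of Zeb2 was 0.15. The difference was 0.25 without BMP2 replicate 3, and no fit without the block and with 1 sample left out passed (adjusted p 0.38 to 0.62).

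Zeb2 is also expressed by endothelial, stellate and Kupffer cells. In a bulk sample a change in the number of cells of a type and a change in RNA per cell cannot be told apart. Of 10 endothelial markers none passed, and 8 averaged under 7 in both groups. Their differences ran from 0.00065 to 0.10, so 10 of 10 lay above 0, against 51.7% of all probe sets. The mean log2 level of that list (its sum divided by 10) was 6.80 to 6.86 in BMP2 samples and 6.78 to 6.83 in controls, highest in replicate 3 of either group. Cdh5, the VE-cadherin gene, was at 7.07, 7.20 and 7.35 in BMP2 samples, against 7.001, 7.05 and 7.25 in controls (0.10 ± 0.10, SE; limma adjusted p = 0.83, and 0.10 with the block). Cdh5, named after values were seen, followed the same order of replicates as Zeb2, and so did Ski. Of the same list Fcgr2b, Pecam1 and Stab2 also did, whereas Lyve1, Kdr, Stab1, Tek, Egfl7 and Clec4g did not. The mean level of 10 stellate cell and fibroblast markers was 6.81 to 6.85 with BMP2 and 6.85 to 6.90 in controls, and that of 10 Kupffer cell and leukocyte markers 6.59 to 6.60 with BMP2 and 6.58 to 6.60 in controls. None of these passed, and 9 of the stellate and all 10 of the Kupffer and leukocyte markers averaged under 7 in both groups. The part of other cells in the Zeb2 values was not tested.

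Tgif1, a homeodomain corepressor of SMAD2, was nearly level. It was at 12.16, 12.12 and 12.09 in BMP2 samples, against 12.16, 12.13 and 12.04 in controls, and the groups overlapped. The difference was 0.012 ± 0.038 (SE; 95% interval -0.084 to 0.11; limma adjusted p = 0.97), so a change beyond 1.08-fold upwards lay outside the interval. It was -0.0055 without BMP2 replicate 1 and -0.025 without control replicate 3.

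Both ubiquitin ligase genes were measured well above the floor. Smurf1, whose product targets SMAD1 and SMAD5, was at 8.49, 8.58 and 8.73 in BMP2 samples, against 8.74, 8.70 and 8.83 in controls. BMP2 replicate 3 lay above control replicate 2, so the groups overlapped, but within each replicate BMP2 was lower, by 0.25, 0.13 and 0.10. The difference was -0.16 ± 0.07 (SE; 95% interval -0.34 to 0.02), with a limma adjusted p of 0.47 and of 0.15 with the replicate block. Smurf2, which acts with SMAD7 on receptors, was at 9.86, 9.87 and 9.82 in BMP2 samples, against 9.83, 9.88 and 9.90 in controls. Its groups overlapped, with a difference of -0.018 ± 0.024 (SE; 95% interval -0.078 to 0.043; limma adjusted p = 0.92). The difference of Smurf2 minus that of Smurf1 averaged 0.14 (0.28, 0.12 and 0.025 in the pairs; exact permutation p = 0.20, 0.30 adjusted over 3 pairs, and 0.25 by the paired test).

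Pmepa1, a SMAD-sequestering membrane protein induced by TGF-beta in other cells, differed in 1 replicate. It was at 9.53, 9.52 and 9.68 in BMP2 samples, against 9.53, 9.52 and 9.38 in controls. Replicates 1 and 2 had the same level in both groups to within 0.0039, whereas in replicate 3 the BMP2 sample was the highest of the 6 and the control the lowest. The difference was 0.10 ± 0.06 (SE) with a limma adjusted p of 0.68, and without both samples of replicate 3 it was -0.0020. Fkbp1a, the FKBP12 gene, was at 11.28, 11.26 and 11.15 in BMP2 samples, against 11.30, 11.36 and 11.29 in controls. All BMP2 samples lay below all controls, by a narrow margin. The difference was -0.089 ± 0.041 (SE; 95% interval -0.19 to 0.015; limma adjusted p = 0.49, and 0.26 with the block).

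Of the co-receptor genes, Rgma lay near the floor and Rgmb a little above it. Rgma was at 6.96, 6.92 and 6.93 in BMP2 samples, against 6.92, 6.93 and 6.92 in controls. Its difference of 0.014 ± 0.011 (SE; limma adjusted p = 0.80) does not show that the gene was unchanged. Rgmb was at 7.30, 7.29 and 7.36 in BMP2 samples, against 7.29, 7.33 and 7.29 in controls, with a difference of 0.0088 ± 0.022 (SE; limma adjusted p = 0.96). The groups overlapped for both genes. The difference of Rgmb minus that of Rgma was -0.0049 (exact permutation p = 0.90, also adjusted over 3 pairs, and 1 by the paired test). Hjv, the hemojuvelin gene and the third RGM gene, stood at 8.57, 8.77 and 8.40 with BMP2 and 7.998, 7.88 and 7.89 in controls. Its difference of 0.65 ± 0.10 (SE) did not pass in these 2 fits (limma adjusted p = 0.065, and 0.071 with the block). Hjv did pass in some other settings, such as the random block (limma adjusted p = 0.029).

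**Figure D2:**
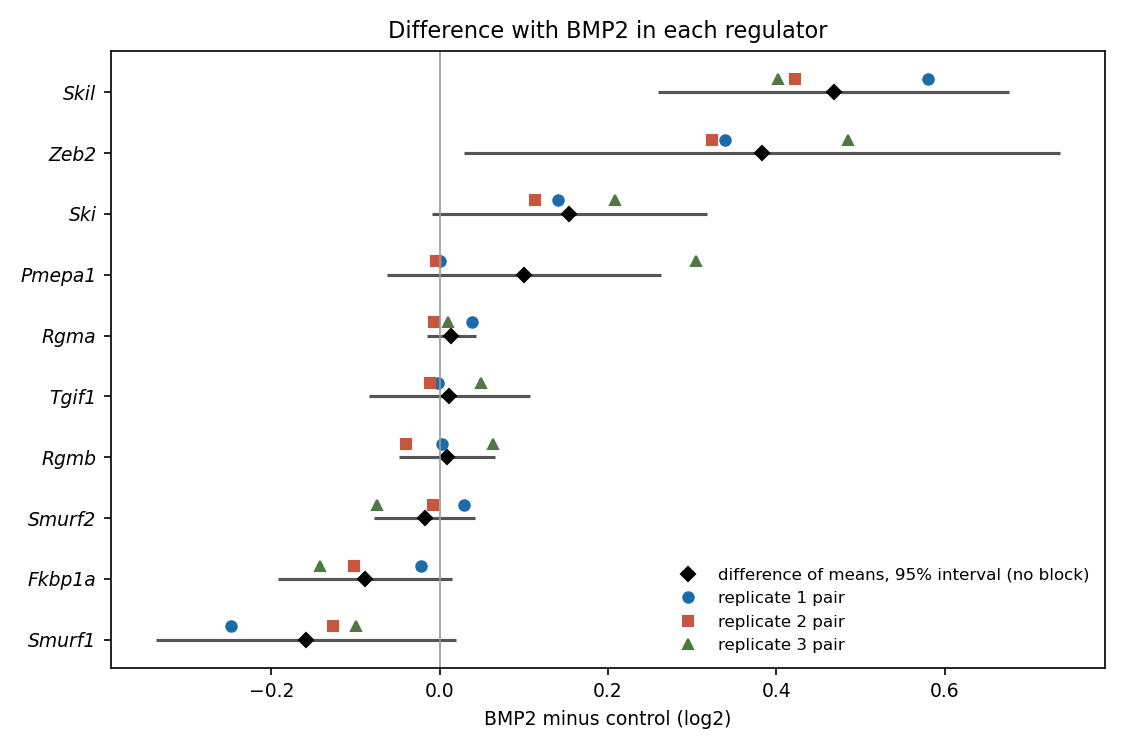
BMP2 minus control difference (log2) of each regulator, ordered by size. Diamonds and bars give the difference of means and its 95% interval from limma without the block (n = 3 each), and coloured symbols the difference within each replicate number. The intervals of Skil (0.26 to 0.68) and Zeb2 (0.03 to 0.74) lie above 0, and the Pmepa1 symbol of replicate 3 stands apart from the other 2.

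Over the 10 genes, all 3 BMP2 samples lay above all controls for Ski, Skil and Zeb2, 3 of 10 against 8.42% of all probe sets, and below them for Fkbp1a, 1 of 10 against 8.25%. BMP2 was higher in every replicate pair for the same 3 genes (19.1% of all probe sets) and lower in every pair for Smurf1 and Fkbp1a, 2 of 10 (17.6% of all).

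The share of the variation taken by the replicate number differed widely between regulators. The sum of squares over the 6 samples was split into a part for BMP2 against control, a part for the replicate number and the rest, as a description. Even without any replicate effect the replicate number takes a share, and with 3 levels a larger one than the 2 groups. BMP2 against control took 86.3% for Skil, 59.4% for Zeb2, 52.8% for Ski, 49.7% for Smurf1 and 48.4% for Fkbp1a. The replicate number took 11.2% for Skil but 38.5% for Zeb2, 43.6% for Ski, 42.0% for Smurf1 and 88.5% for Tgif1. For Zeb2 the means of the replicates were 7.03, 7.12 and 7.39, a range of 0.36 that was about as large as its difference with BMP2. What was left for Zeb2, Skil and Ski was 2.15%, 2.50% and 3.59%, whereas it was 67.4% for Pmepa1, 73.1% for Rgmb, 60.9% for Smurf2 and 51.7% for Rgma.

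**Figure D3:**
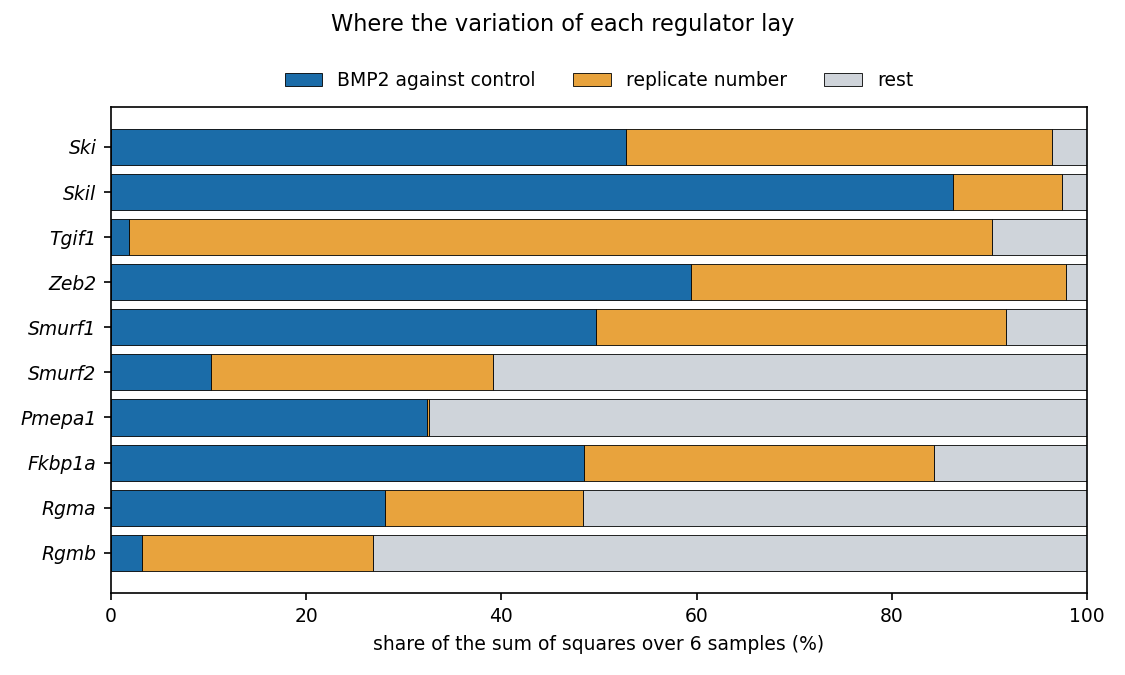
Share of each regulator's sum of squares over 6 samples (%) taken by BMP2 against control, by the replicate number and by the rest. The share for BMP2 is highest for Skil (86.3%) and that for the replicate number is highest for Tgif1 (88.5%).

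The patterns closest to Skil and Zeb2 were sought by Pearson correlation of log2 values over the 6 samples, among 8567 named probe sets that averaged 7 or more. These samples share the 3 mice and the 2 conditions, and no p is given. Closest to Zeb2 was Ski (r = 0.995), another of the 10, followed by Ckap4 (0.993), which encodes a membrane protein of the endoplasmic reticulum, and Qtrt1 (0.993), which encodes a subunit of the enzyme that puts queuine into transfer RNA. Their BMP2 minus control differences were 0.099 (Ckap4) and 0.14 (Qtrt1). Closest to Skil were Abtb1 (r = 0.999), Ablim3 (0.995), which encodes an actin-binding protein, and Il6st (0.993), which encodes the shared receptor subunit gp130 of the interleukin-6 family. Their differences were 0.078 (Abtb1), 0.40 (Ablim3) and 0.21 (Il6st). All were chosen for their likeness to Skil or Zeb2 over the same samples, so their differences are a description.

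The 77 measured genes of 4 further lists of the SMAD pathway placed these values among other regulators. Over all probe sets 1.19% passed in limma and 3.32% with the block, and 12.5% and 18% had an unadjusted p under 0.05. In the nuclear list of corepressors and partners 0 of 22 passed in limma (2 with an unadjusted p under 0.05, 5 with the block), with a median difference of 0.013. With the block 1 rose, Tob1, an antiproliferative protein reported to bind BMP SMADs (0.13, limma adjusted p = 0.030, and 0.54 without it). Its groups overlapped, at 11.57, 11.54 and 11.71 in BMP2 samples, against 11.43, 11.40 and 11.59 in controls. The smallest p without the block were those of Ctbp2 (-0.17 ± 0.06), a corepressor that ZEB proteins recruit, Crebbp (0.053 ± 0.019), a coactivator acetyltransferase, and Sin3b (0.056 ± 0.027), a repressor scaffold (SE; limma adjusted p = 0.32, 0.35 and 0.51).

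In the list of ubiquitin ligases, deubiquitinases and phosphatases 1 of 19 rose, none fell and 18 did not pass, with a median of 0.038. Of all probe sets 1.19% passed in limma, and 3.32% with the block. An unadjusted limma p under 0.05 was held by 5 of the 19, against 12.5% of all probe sets. With the block it was held by 8 of the 19, against 18% of all. The riser was Pdp1, which encodes a phosphatase of mitochondrial pyruvate dehydrogenase whose fly relative was reported to dephosphorylate the SMAD protein Mad. Pdp1 was at 8.32, 8.30 and 8.22 in BMP2 samples, against 8.03, 7.98 and 8.02 in controls, groups well apart (0.27 ± 0.03, SE; limma adjusted p = 0.036, and 0.049 with the block). It passed in limma in 1 of the 6 fits with 1 sample left out, that without BMP2 replicate 3 (adjusted p 0.11 to 0.15 in the others), and not after quantile normalization (adjusted p = 0.054). Ctdsp1, a small phosphatase of the SMAD linker, differed by 0.16 ± 0.03 (limma adjusted p = 0.081) and Nedd4, a ligase of the same family as the SMURFs, by -0.074 ± 0.018 (limma adjusted p = 0.17).

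Of 17 co-receptor and receptor-binding genes 0 passed in limma with or without the block (3 with an unadjusted p under 0.05, 7 with the block), with a median of 0.020. Among all probe sets 1.19% passed in limma and 3.32% with the block. An unadjusted p under 0.05 was held by 12.5% of them, and by 18% with the block. The smallest p of the list were those of Hjv, of Bambi, a pseudoreceptor (0.26 ± 0.05, limma adjusted p = 0.10), and of Hgs, an endosomal SMAD adaptor (0.074 ± 0.026, limma adjusted p = 0.35). Bambi averaged 6.80 in controls, near the floor, so its difference may be compressed. Of 19 genes known as targets of BMP or TGF-beta signals 7 rose and 1 fell in limma, against 1.19% of all probe sets in either direction. The list was chosen with earlier results of these data known, so this count is a description and not a test. In both groups 6 of the 19 averaged under 7, near the floor. Among the risers were the genes of the inhibitory SMADs, Smad7 (1.62 ± 0.07, SE) and Smad6 (0.24 ± 0.03), the feedback inhibitors best known in this pathway. The Smad6 controls averaged 6.90, near the floor, so its difference may be compressed. Fn1, the fibronectin gene, was the one that fell (by 0.12; limma adjusted p = 0.041, and 0.066 with the block). No test of the difference between these lists was made.

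**Figure D4:**
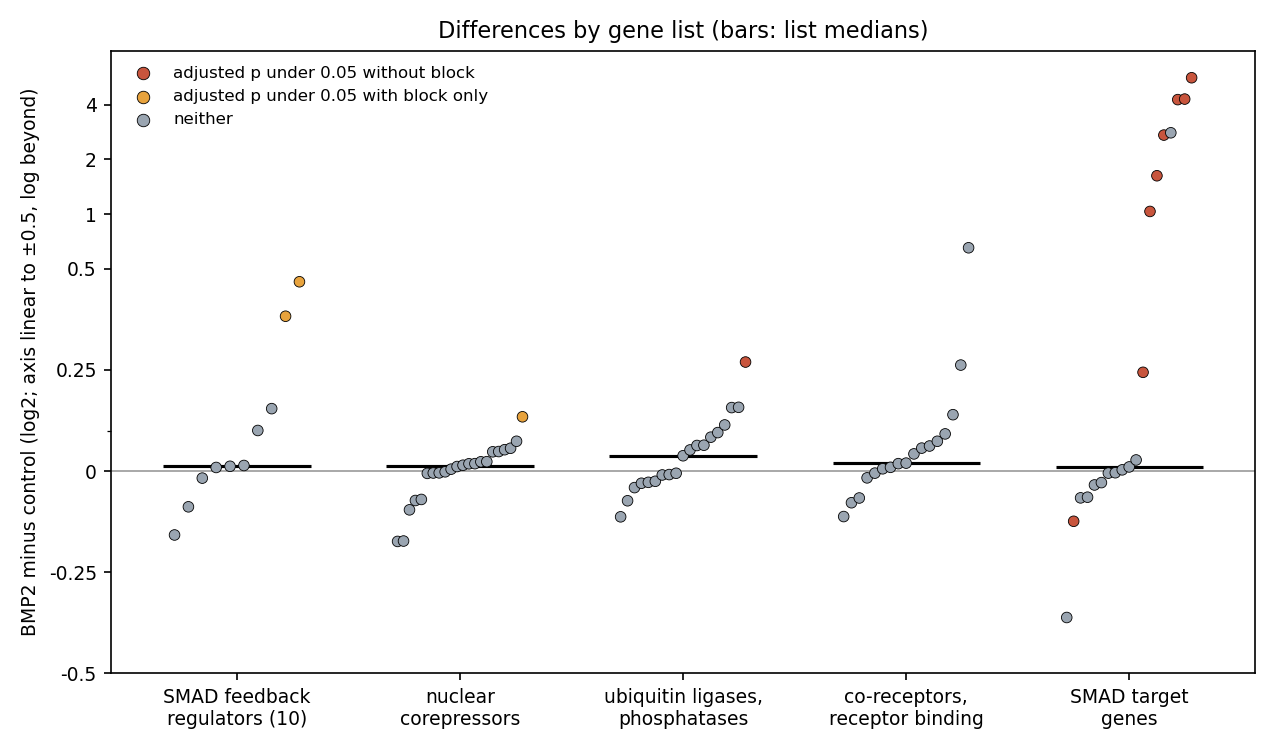
BMP2 minus control difference (log2) of every measured gene of the 10 regulators and of 4 other SMAD pathway lists. The axis is linear to ±0.5 and logarithmic beyond, bars are list medians, and colours show adjusted p from limma. The 10 regulators reach at most 0.47, while the called targets reach 5.62.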

How the data were processed

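RNA of 3 BMP2-stimulated and 3 control hepatocyte samples was hybridised to an Affymetrix array as biotinylated cRNA, per the labels. The authors deposited log2 expression values, 1 per gene-level probe set and sample, made with RMA per the submitters' processing notes; its version, probe grouping and filters are not given in the sources used here. Names came from the platform annotation (20405 of 21115 probe sets), updated through the RefSeq gene table.

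The test of BMP2 against control was limma 3.58.1 (R 4.3.3; lmFit, eBayes, two-sided) on the deposited values. P-values were adjusted by Benjamini-Hochberg over the whole table, with a threshold of 0.05. Intervals are limma's 95% intervals, unadjusted. An array holds no counts, so 3 samples per group limit the precision. Paralogues were compared with an exact permutation test and a paired exact sign-flip test. The limma fit without the block was tried on simulated data with independent noise and no replicate effect. That simulation did not cover the fits with the block.

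Samples carry the numbers 1 to 3 in each group, and the design text gives 3 mice. Same-numbered samples deviated together from their group means (r = 0.48, 0.58 and 0.61), so these numbers pair the samples. The test without the block is the main one, as the sources name no block. It ignores this pairing, so its SE, intervals and adjusted p include differences between replicate numbers. For Zeb2 the SE was 0.14 without the block and 0.04 with it, whereas for Pmepa1 it was 0.06 and 0.08. Results with the block are therefore given beside the main ones for the counts and for genes that passed only there.

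The genes and lists were chosen with earlier results of these data known. Named genes were all 10 regulators, list genes past the threshold with or without the block and the 3 with the smallest p of each list, and the 3 closest patterns; of the targets, and of the markers Alb, Cyp2e1, Hnf4a, Ttr, Cdh5, Krt19, Sox9 and Acta2, names were chosen after values were seen. Alternatives were a fixed or random block, a filter on means under 7, an intensity trend, quantile normalization, median centring, a threshold of 0.10 and omission of each sample; the block combined with these, omission of both samples of a number and the sign-flip test were added after the data were seen.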

Additional observations from a re-analysis of the deposited data

How the results depend on the processing

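Of the 10 regulators, 0 passed under quantile normalization, median centring or with 1 sample or 1 replicate number left out. With the replicate block 2 passed (Skil and Zeb2), also with the block and quantile normalization (2), median centring (2) or the intensity trend (2), and 3 with the block and the filter on means under 7, which left 9 of the 10 and added Ski (limma adjusted p = 0.036). The random block, the filter, the intensity trend and a threshold of 0.10 each gave 1, Skil. Over all probe sets 702 passed with the block, against 251 without it, 700 with the random block, 443 with the filter, 438 with the trend, 567 at 0.10, and with the block 1278 with the trend, 1271 with the filter, 661 after quantile normalization and 677 after median centring; with 1 sample left out the count ran from 30 to 223, and without both samples of a number from 2 to 114 (0 with the block). With the block on 2 pairs no probe set of the table passed, so these fits say nothing of Skil or Zeb2.

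The nuclear list had 1 call, Tob1 (higher), with the block, with block and quantile normalization and with block and median centring. With block and trend it had 1 other, Ctbp2 (lower; limma adjusted p = 0.042), and Tob1 did not pass, and with block and filter it had both (2). The ligase and phosphatase list had 2 with the random block, the trend, block and trend or 0.10, 3 with block and filter, 0 after quantile normalization or with block and median centring, and 0 to 1 with samples left out. The co-receptor list had 1 with the random block, the filter, block and filter or 0.10, 2 with the trend or block and trend, and 0 to 1 with samples left out. Hjv was called in each of these settings that had a call, and Bambi was the other with the trend or block and trend. The limma adjusted p of Hjv was 0.014 with the filter, 0.012 with the trend and 0.045 without BMP2 replicate 3. The target list had 5 to 7 with 1 sample left out, and 4, 1 and 6 without both samples of number 1, 2 or 3 (0 with the block). Signs turned only for small values: Pmepa1 (-0.0020), Smurf2 (0.011), Tgif1 (-0.0068) and Rgmb (-0.019) without replicate 3, Tgif1 without BMP2 replicate 1 (-0.0055) or control replicate 3 (-0.025), Rgmb without BMP2 replicate 3 (-0.012; up to 0.022 with another sample left out), and Rgmb minus Rgma (-0.027 to 0.015 with 1 sample left out; 0.015 without BMP2 replicate 1, 0.0063 without control replicate 2). The cause was not tested.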

Other observations

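Of 36 measured markers of other liver cell types, none passed in limma without the replicate block (1.19% of all probe sets did). With the block 1 passed, Sox9 (3.32% of all). Krt19, a keratin of bile duct cells, was at 8.23, 8.13 and 8.40 in BMP2 samples, against 8.85, 8.77 and 8.68 in controls, with no overlap (-0.51 ± 0.08, SE; limma adjusted p = 0.073, and 0.10 with the replicate block). Sox9, a transcription factor of the same cells, was at 10.46, 10.44 and 10.29 in BMP2 samples, against 10.07, 10.02 and 9.73 in controls, and rose with the block (0.46, limma adjusted p = 0.039; 0.14 without it). Acta2, smooth muscle actin, was at 7.84, 7.84 and 8.08 in BMP2 samples, against 8.62, 8.21 and 8.39 in controls (-0.49 ± 0.13, SE; limma adjusted p = 0.20, and 0.15 with the block). In the bile duct list 4 of 6 measured markers averaged under 7 in both groups.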
